A study of Caenorhabditis elegans with 2 samples.

Results

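Chaperone and heat shock genes were examined in a chromatin immunoprecipitation and sequencing (ChIP-seq) study of HLH-17 in the nematode Caenorhabditis elegans. The set comprised 63 of the 19973 protein-coding genes that the Ensembl annotation of WBcel235 places on the 6 chromosomes. It was chosen by name, with earlier results of these data known. It holds every gene called hsp-, dnj- or cct- plus a number, together with hsf-1, F44E5.4, F44E5.5 and F11F1.1. By type these were 9 genes grouped as Hsp70, 2 Hsp90 genes, 9 Hsp60-type genes (hsp-60 and cct-1 to cct-8), 13 small heat shock genes, 29 DnaJ genes and hsf-1. The RefSeq annotation gave F44E5.4 and F44E5.5 the product Heat shock protein 70. For F11F1.1 the product read was a DUF148 domain-containing protein, which did not bear out its listing with the chaperones. Only the first product listed for each gene was read. The symbols hsp-16.1 and hsp-16.48 each named 2 genes, of which RefSeq calls the second copies hsp-16.11 and hsp-16.49.

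The study had 1 group of 2 biological replicates. Whole L1 larvae of mixed sex and 6 h of age, starved after bleaching, came from strain OP643, which carries the transgene wgIs643 (hlh-17::TY1::EGFP::3xFLAG with unc-119(+)) in an unc-119 (tm4063) background, and chromatin was recovered with an antibody against GFP. Both replicates carried the transgene and the mutation, so that no untagged group was compared, and peaks of all tissues of the larva were read together. Peaks were deposited on ce11, the assembly that WBcel235 denotes, as a relaxed list of 30000 peaks for each replicate, a relaxed pooled list of 30000 peaks from both replicates, and a thresholded list, which was identical to the head of the pooled list ranked by signal.

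Chaperones help other proteins to fold. Hsp70 proteins bind exposed stretches of unfolded chains with the help of DnaJ proteins, which carry the J domain that stimulates the Hsp70 ATPase, and Hsp90 acts on later folding states of many signalling proteins. Hsp60 with its partner Hsp10 in mitochondria and the CCT ring in the cytosol enclose a chain to fold it, and small heat shock proteins hold unfolded chains without ATP. Heat shock factor, encoded by hsf-1, binds heat shock elements, which are alternating GAA and TTC units spaced 2 bases apart, whereas basic helix-loop-helix proteins such as HLH-17 bind the E-box CANNTG.

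The sequences at 4 strong summits are shown because they differ in which of these motifs they hold. Each is the RefSeq WBcel235 sequence from 100 bp before to 100 bp after the pooled summit, on the + strand, 5′ to 3′, with E-boxes (CANNTG) and heat shock pairs (GAANNTTC or TTCNNGAA) in capitals. Both strands are covered, since each motif is its own reverse complement, and neighbouring pairs overlap in their shared unit. The peaks lie between F44E5.4 and F44E5.5 (chrII:11759354-11759554), upstream of hsp-60 (chrIII:1619042-1619242), upstream of hsp-1 (chrIV:17278456-17278656) and inside hsp-90 (chrV:14685644-14685844).
F44E5.4/F44E5.5: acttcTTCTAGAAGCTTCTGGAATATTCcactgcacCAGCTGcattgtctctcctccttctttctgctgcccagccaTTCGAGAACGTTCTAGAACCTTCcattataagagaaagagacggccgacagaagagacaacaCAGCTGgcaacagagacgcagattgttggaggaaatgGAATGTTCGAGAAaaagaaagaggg
hsp-60: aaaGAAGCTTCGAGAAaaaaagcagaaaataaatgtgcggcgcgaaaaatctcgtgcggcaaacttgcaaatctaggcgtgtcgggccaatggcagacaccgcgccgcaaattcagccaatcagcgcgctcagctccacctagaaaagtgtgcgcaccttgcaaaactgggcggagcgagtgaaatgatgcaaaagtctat
hsp-1: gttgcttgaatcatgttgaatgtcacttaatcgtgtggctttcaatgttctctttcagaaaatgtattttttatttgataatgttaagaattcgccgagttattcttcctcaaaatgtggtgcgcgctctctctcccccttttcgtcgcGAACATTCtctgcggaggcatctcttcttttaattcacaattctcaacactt
hsp-90: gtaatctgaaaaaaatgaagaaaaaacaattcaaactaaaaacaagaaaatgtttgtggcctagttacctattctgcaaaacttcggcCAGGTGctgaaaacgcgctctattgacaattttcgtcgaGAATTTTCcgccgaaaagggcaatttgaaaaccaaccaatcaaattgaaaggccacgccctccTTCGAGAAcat

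The F44E5.4/F44E5.5 sequence held 2 E-boxes, both CAGCTG and 61 and 42 bp from the summit, 5 pairs of each form and 7 chains of 3 heat shock units, of which the middle of the nearest lay 7 bp from the summit. The hsp-60 sequence held no E-box and 1 chain of 3 units, 91 bp from the summit. In the hsp-1 sequence there was no E-box and a single pair, GAACATTC. The hsp-90 sequence held 1 E-box, CAGGTG, centred 9 bp from the summit, and 2 pairs, but no chain of 3 units. Guanine and cytosine made up 46.8% of the F44E5.4/F44E5.5 sequence, 50.2% of that of hsp-60 and 38.8% of each of the other two, against a median of 39.3% at the strongest pooled summits of all protein-coding genes (quartiles 35.3% and 43.8%). The sequence at the thresholded summit inside hsp-12.3 (pooled rank 50) is not shown. It held 2 E-boxes, CATCTG and CATGTG, centred 19 and 75 bp from the summit, and no heat shock pair.

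A gene was given the strongest peak, by the authors' signal value, whose summit lay in its promoter window, from 1000 bp upstream to 300 bp downstream of the gene start. The signal has no stated scale and differs between lists, from 56.2 to 658 in the pooled list, 21.5 to 254 in replicate 1 and 40.3 to 393 in replicate 2, so ranks within a list (rank 1 is the strongest) are used to compare lists. The relaxed lists are deposited as peaks together with background, so a low-ranking relaxed peak is not in itself evidence of binding. Read numbers were not used here and the depth of each replicate is unknown.

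Thresholded peaks lay in the windows of 4 of the 63 genes (6.35%), against 73 of all protein-coding genes (0.365%). These 4 genes were F44E5.4, F44E5.5, hsp-60 and hsp-1, at 3 peaks, because F44E5.4 and F44E5.5 share 1. Those 2 genes were added to the set by name, and members were chosen with earlier results of these data known. How far the difference from all protein-coding genes comes from that choice was not tested. Relaxed pooled peaks were in contrast no more frequent than in the genome: 17 of 63 (27.0%) had one, against 32.0% of all protein-coding genes. In replicate 1 the count was 23 (36.5%), against 32.4%, and in replicate 2 it was 10 (15.9%), against 31.3%. Both replicate lists had a peak in the window of 9 genes (14.3%), against 15.5%. The lists thus held a few chaperone genes near their tops and otherwise chaperone genes at about the background rate or, in replicate 2, below it. In all, 27 of the 63 genes (42.9%, against 49.7% of all protein-coding genes) had a peak in some list. The other 36 had none (57.1%, against 50.3%).

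**Figure D1:**
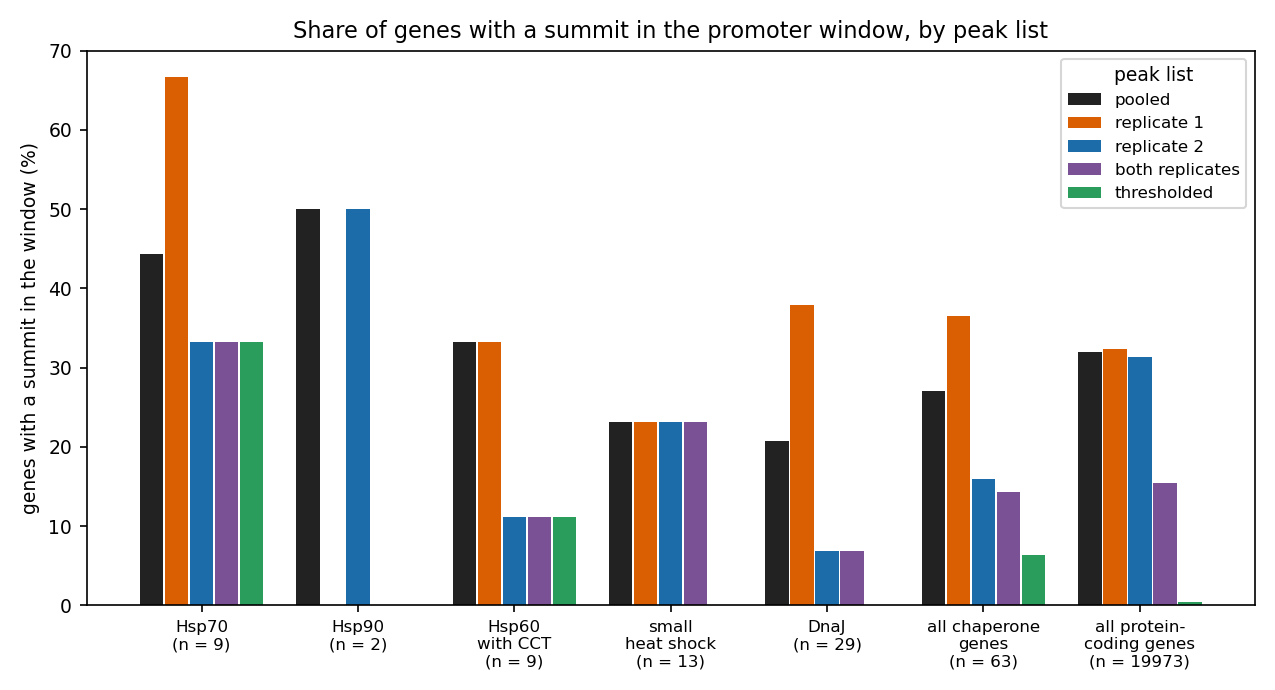
Share of genes, in percent, with a summit in the promoter window in each peak list, for the chaperone types, all 63 chaperone genes and, at the right, all 19973 protein-coding genes; "both replicates" counts genes with a summit in each replicate list. Among the types Hsp70 had the highest share in replicate 1 (66.7%), and all chaperone genes had 6.35% in the thresholded list, against 0.365% of all protein-coding genes.

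The strongest pooled peaks of chaperone genes were spread from rank 11 to rank 29653. The peak shared by F44E5.4 and F44E5.5 counts for 2 genes in the median ranks and in the count found in both replicates. The median pooled rank was 7327 over the 17 chaperone genes, against 14358 over the 6400 protein-coding genes with a pooled peak. In replicate 2 the median was 4174 over 10 chaperone genes, against 13955.5 over all genes. In replicate 1 the order was the other way round, with 16826 over 23 chaperone genes, against 13944.5. The strongest pooled summit had a summit within 100 bp in both replicates for 9 of the 17, against 28.8% of the genes with a pooled peak. Of the remaining 8, 4 were matched in replicate 1 only (cct-8, dnj-2, dnj-16 and dnj-28), 1 in replicate 2 only (hsp-75) and 3 in neither (hsp-70, cct-7 and dnj-3). Of the 6400 protein-coding genes with a pooled peak, 1304 were matched in replicate 1 only, 2673 in replicate 2 only and 578 in neither.

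The replicates contributed unequally. A peak was present in replicate 1 but not in replicate 2 at 14 genes (22.2%, against 16.9% of all protein-coding genes), and in replicate 2 but not in replicate 1 at 1 gene, hsp-75 (1.59%, against 15.8%). Of the 14, 10 ranked below 10000 (71.4%, against 68.4% of such peaks of all protein-coding genes), with a median rank of 23010, against 15664. The peak of cct-8 ranked highest, at 44.

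**Figure D2:**
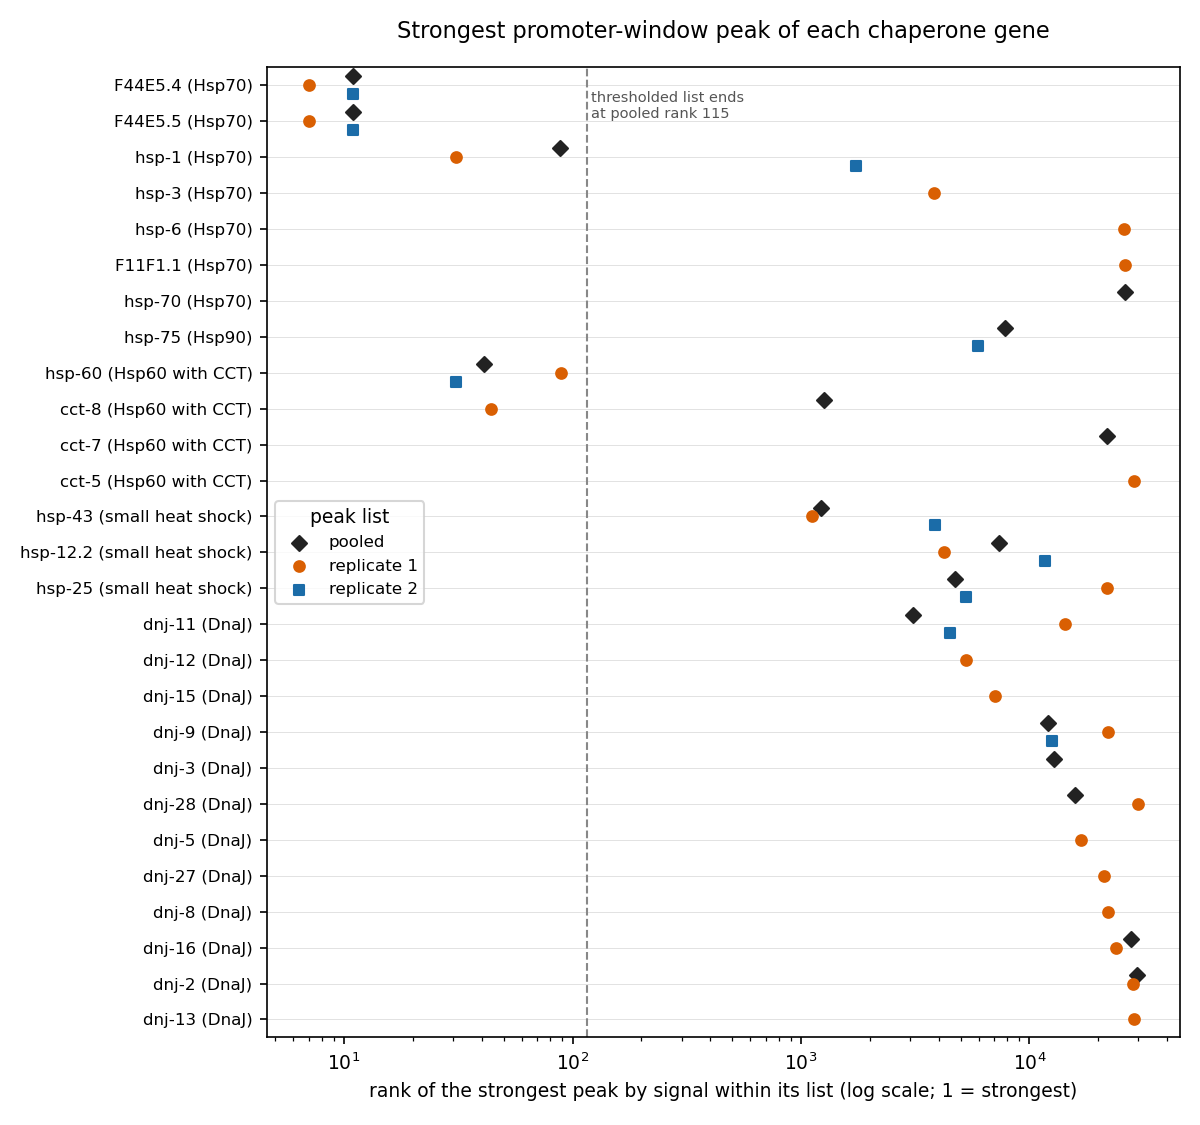
Rank of the strongest peak in the promoter window (log axis, 1 is the strongest) in the pooled list and in each replicate, for the 27 chaperone genes with a peak in some list, ordered by type. The F44E5.4/F44E5.5 peak ranks 11, 7 and 11 in the pooled list, replicate 1 and replicate 2, and only F44E5.4, F44E5.5, hsp-60 and hsp-1 lie left of the dashed line in the pooled list.

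Among Hsp70 genes, the heat-inducible pair F44E5.4 and F44E5.5 had the strongest peak of the set. These genes are transcribed away from each other from starts at 11759311 (- strand) and 11759662 (+ strand) on chromosome II, and the summit lay between them at 11759454, 143 bp upstream of F44E5.4 and 208 bp upstream of F44E5.5. The peak (11759412 to 11759550) had a signal of 287 in the pooled list, 125 in replicate 1 and 169 in replicate 2, and the 2 replicate summits lay 18 bp apart. Its estimated q in the authors' column was 0.0476. The peak was thus near the top of every list. All 10 chains of 3 heat shock units in the windows of the pair lay within 200 bp of the summit. Of all 31-base words in each of these windows 79.7% occur more than once in the genome, but in the 201 bp around the summit 7.02% do. The part of such repeats in the result was not tested.

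The constitutive cytosolic Hsc70 gene hsp-1 had a peak 403 bp upstream of its start (chromosome IV, 17278364 to 17278747). Its signal was 154 in the pooled list (rank 88), 82.1 in replicate 1 (rank 31) and 74.7 in replicate 2 (rank 1738). The replicates thus agree on the position within 15 bp but not on the strength, and the pooled estimated q was 2.95, where values over 1 are possible in the deposited column. The non-coding RNA gene F26D10.23 begins 143 bp before that summit on the same strand. A further pooled peak of rank 1309 lay inside hsp-1, 328 bp downstream of the start and so just outside the window, with a summit of rank 270 in replicate 1 and none within 100 bp in replicate 2.

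In their windows the other Hsp70 genes had weak peaks or none. The heat-inducible hsp-70 had a pooled peak of rank 26301 (signal 59.0), 780 bp upstream, and none in either replicate list. Of the endoplasmic reticulum genes, hsp-3 had a peak in replicate 1 alone (rank 3812, 96 bp upstream) and hsp-4, which encodes the BiP homolog, had none. Of the rest, hsp-6, the mitochondrial Hsp70 gene, and F11F1.1 had peaks in replicate 1 alone, of ranks 25827 and 26237. The window of hsp-110 had none. Inside that gene, 1500 bp downstream of the start, lay a pooled peak of rank 2208, with a summit of rank 351 in replicate 2 and none within 100 bp in replicate 1. A pooled peak of rank 258 lay 116 bp past the end of hsp-110, with a summit of rank 17 in replicate 1 and none within 500 bp past the end in replicate 2. Thresholded summits were thus upstream of 3 of the 9 Hsp70 genes (33.3%, against 0.365% of all protein-coding genes with one in the window). F44E5.4 and F44E5.5, which were added to the set by name, share 1 of these summits, and that of hsp-1 ranked only 1738 in replicate 2. The windows of the other 6 Hsp70 genes held weak summits or none.

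Of the Hsp90 genes, hsp-90 had no summit in its window, but a strong one inside the gene. The peak (chromosome V, 14685552 to 14685935) had its summit 826 bp downstream of the annotated gene start, in an intron of the longer transcript, 416 bp upstream of the start of the shorter transcript, and 259 bp upstream of the start of C47E8.4 on the other strand. The signal was 230 in the pooled list (rank 19), 110 in replicate 1 (rank 12) and 122 in replicate 2 (rank 49). The replicate summits lay 3 and 22 bp away, and the estimated pooled q was 0.568. With any transcript start in place of the gene start, hsp-90 would have a thresholded summit. From its position the peak's relation to the shorter hsp-90 transcript and to C47E8.4 cannot be told apart. The mitochondrial Hsp90 gene hsp-75 had a pooled peak of rank 7821 (signal 81.7), 794 bp upstream of its start and inside the coding sequence of R151.8. It was in replicate 2 at rank 5974 (signal 61.7) and not in replicate 1.

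Among the Hsp60-type genes, hsp-60 had a peak that it shares with the gene of its partner. The summit lay on chromosome III at 1619142 (peak 1618950 to 1619333), 600 bp upstream of hsp-60 and 213 bp upstream of Y22D7AL.10, a gene on the other strand that RefSeq annotates as the mitochondrial 10 kDa heat shock protein. The signal was 194 in the pooled list (rank 41), 63.5 in replicate 1 (rank 89) and 139 in replicate 2 (rank 31), with an estimated pooled q of 1.07. The replicates placed the summit 17 bp apart and both ranked it among their stronger peaks. The summit is thus nearer to the Hsp10 gene than to hsp-60. The only window of the 63 without an E-box was that of hsp-60 (1.59%), against 1.01% of all protein-coding genes.

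The cct genes, which encode the subunits of the cytosolic ring, had 2 pooled peaks among 8 genes. The peak of cct-8 (signal 108, rank 1267, 444 bp upstream) ranked 44 in replicate 1 with a signal of 74.8, whereas in replicate 2 no summit lay in the window. It was 177 bp upstream of Y55F3AR.2, a thioredoxin domain gene on the other strand. The peak of cct-7 (rank 21921, signal 62.8) lay 187 bp downstream of its start and was in neither replicate list. A stronger peak lay 266 bp past the end of cct-7, inside zig-11, at rank 183 in the pooled list, 29 in replicate 1 and 19729 in replicate 2. The window of cct-5 had a replicate 1 peak of rank 28792, 298 bp downstream and so just inside the window, and cct-1, cct-2, cct-3, cct-4 and cct-6 had none in any list.

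The small heat shock genes had 3 pooled peaks in 13 windows (23.1%, against 32.0% of all protein-coding genes). All 3 were found in both replicates, although none was in the thresholded list. The peak of hsp-43 (694 bp upstream) ranked 1222 in the pooled list, 1117 in replicate 1 and 3840 in replicate 2, with signals of 109, 44.4 and 66.5. That of hsp-25 (184 bp downstream) ranked 4707, 21792 and 5256, with signals of 89.5, 24.4 and 63.1. That of hsp-12.2 (44 bp upstream) ranked 7327, 4206 and 11745, with signals of 82.8, 36.3 and 53.7. For hsp-12.2 the replicate summits lay 130 bp apart, on either side of the gene start. The 2 summits of hsp-43 lay 16 bp apart and those of hsp-25 35 bp apart.

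Outside the window, hsp-12.3 had a thresholded peak 531 bp downstream of its start, in its coding sequence (chromosome IV, summit 9444976). The signal was 179 in the pooled list (rank 50), 56.9 in replicate 1 (rank 161) and 112 in replicate 2 (rank 65). The replicate summits lay 7 and 0 bp away, and the estimated pooled q was 1.89. The non-coding RNA gene F38E11.24 starts 210 bp from it and the snRNA gene F38E11.11 lies close by. With the gene bodies added to the windows, 6 of the 63 genes had a thresholded summit (9.52%, against 0.616% of all protein-coding genes), at 5 peaks, the 2 further genes being hsp-90 and hsp-12.3. The choice of F44E5.4 and F44E5.5 by name enters this count of thresholded summits too. Pooled summits were then at 38 genes (60.3%, against 66.3%).

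**Figure D3:**
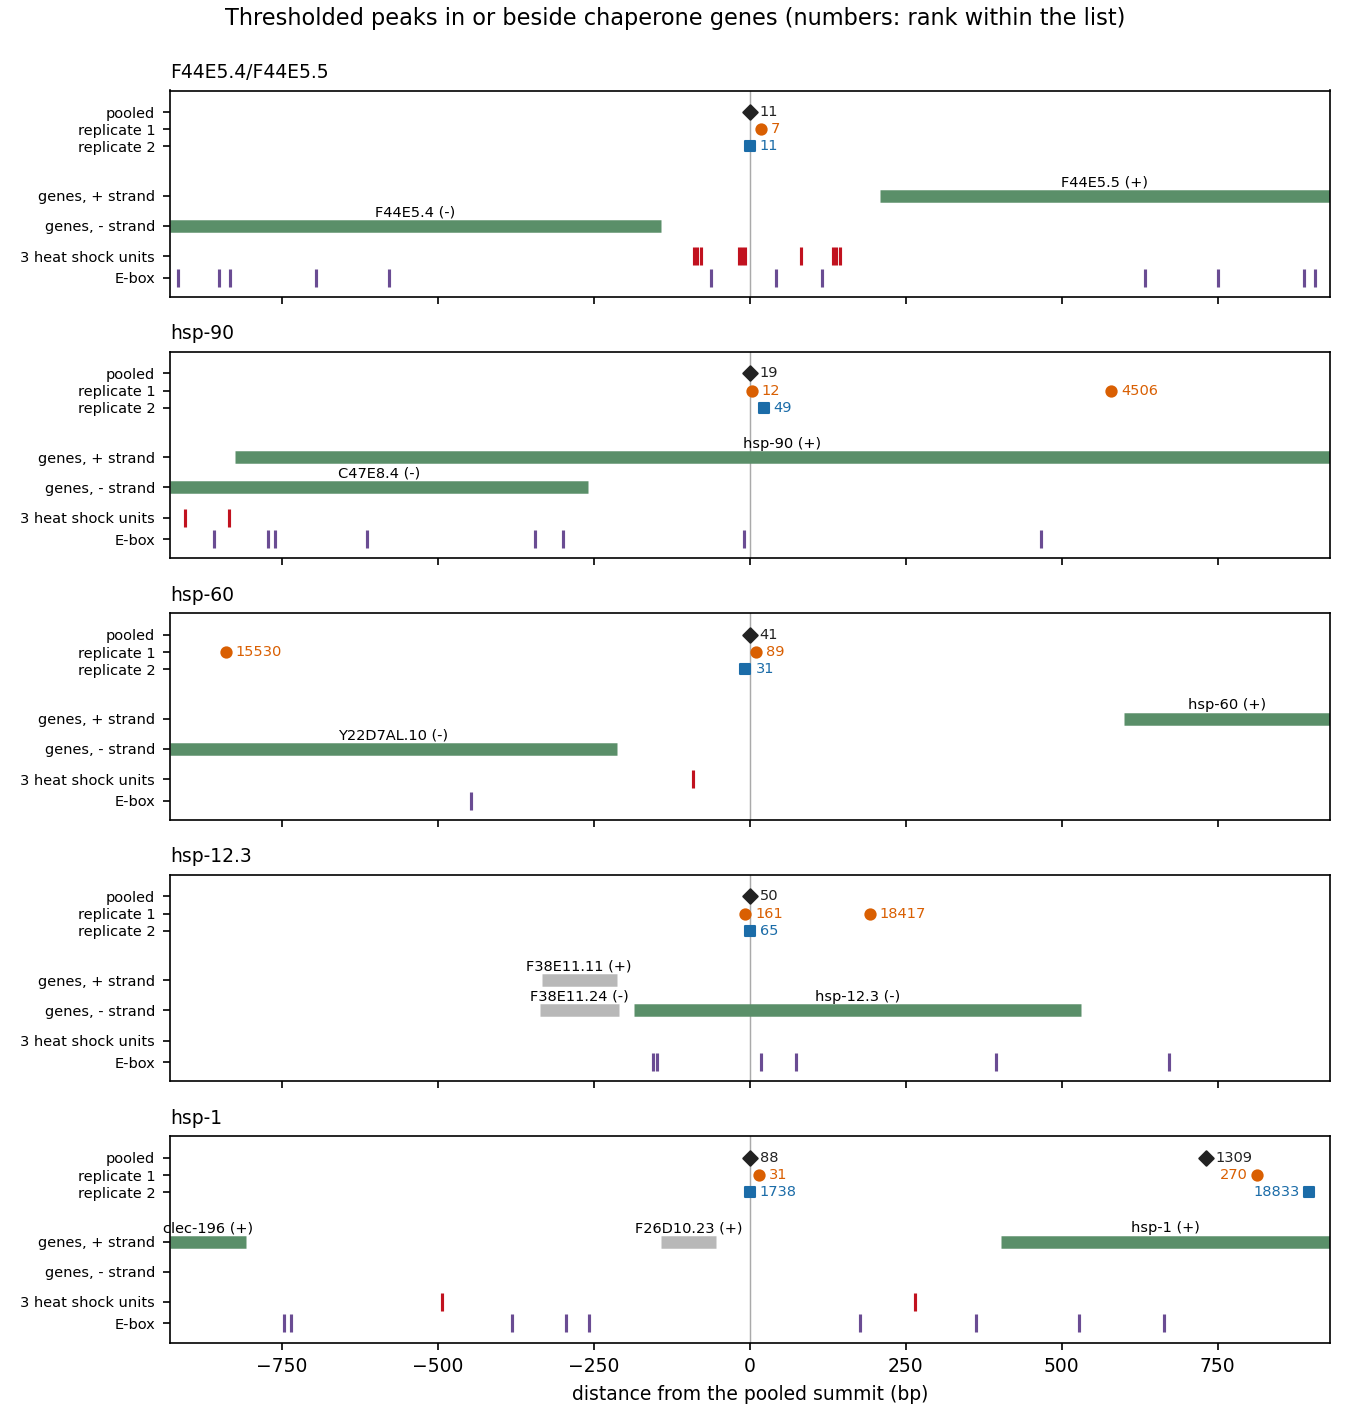
Genes, summits and motifs around the pooled summit at the 5 thresholded peaks in or beside chaperone genes, plotted as distance from that summit in bp; bars are genes (grey for non-coding), numbers are ranks within a list, and ticks mark chains of 3 heat shock units and E-boxes. The 10 chains at F44E5.4/F44E5.5 flank the summit, whereas the hsp-90 summit lies beside an E-box and away from the 2 chains at the gene start.

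The 6 hsp-16 genes, whose small heat shock proteins are strongly induced by heat, had no summit in any list. They lie as divergent pairs, hsp-16.2 with hsp-16.41 and hsp-16.1 with hsp-16.48, the second of which is present in 2 copies. In the windows of the duplicated genes 93.8% to 100% of 31-base words occur more than once in the genome, and of the 617 protein-coding genes with over 50% of such words 23 had a pooled peak. The part of these repeats in the absence of summits was not tested. The windows of hsp-16.2 and hsp-16.41 were largely single-copy (2.83% and 4.48% repeated), and had no summit either, although one of pooled rank 3320 lay 193 bp past the end of hsp-16.41, with a summit of rank 564 in replicate 1 and none within 100 bp in replicate 2. The remaining small heat shock genes without a summit in the window were hsp-12.1, hsp-12.3, hsp-12.6 and hsp-17.

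The DnaJ genes had 6 pooled peaks among 29 (20.7%, against 32.0% of all protein-coding genes). None of these peaks was thresholded, and 2 were found in both replicates. The peak of dnj-11, a DNAJC2 homolog by RefSeq, lay 874 bp upstream and inside the coding sequence of F38A5.2, and had signals of 95.9 in the pooled list (rank 3078), 27.8 in replicate 1 (rank 14277) and 64.8 in replicate 2 (rank 4508). That of dnj-9 lay 225 bp downstream, with signals of 74.4, 24.2 and 52.8 and ranks 11993, 22079 and 12539. That of dnj-3 lay 675 bp upstream (rank 12833, signal 73.2) and was in neither replicate list. The other pooled peaks were at dnj-28 (rank 15803), dnj-16 (27881) and dnj-2 (29653). All 3 were matched in replicate 1, at ranks 29930, 23983 and 28397. The dnj-28 peak was thus in the middle of the pooled list and near the end of that of replicate 1, and the other two were weak in both.

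In replicate 1 a further 6 DnaJ genes had a peak, at ranks from 5264 to 28670: dnj-12, dnj-15, dnj-5, dnj-27, dnj-8 and dnj-13. This brought DnaJ genes to 11 of 29 (37.9%) in replicate 1, near the 32.4% of all protein-coding genes. In replicate 2 the count was 2 (6.90%), against 31.3%. A summit was absent from every list at 17 (58.6%, against 50.3%). These were dnj-1, dnj-4, dnj-7, dnj-10, dnj-14, dnj-17 to dnj-26, dnj-29 and dnj-30, of which dnj-21 encodes the TIM14 subunit of the mitochondrial import motor. Some had peaks within the gene, such as dnj-20 at pooled rank 1167 in its 3′ untranslated region. That summit also lay 378 bp upstream of the start of hal-3, on the same strand. The gene of the regulator itself, hsf-1, had no summit in the window in any list, and none in its body in the pooled list.

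Across types, the median pooled rank was 49.5 for 4 Hsp70 genes, 1267 for 3 Hsp60-type genes, 4707 for 3 small heat shock genes, 7821 for the single Hsp90 gene and 14318 for 6 DnaJ genes. The Hsp70 and Hsp60-type peaks span nearly the full range of ranks (11 to 26301 and 41 to 21921), so the types overlap and their order rests on few genes. In particular the Hsp70 value is set by the shared F44E5 peak, which counts for 2 of the 4 genes.

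The window lies to 76.9% upstream of the start, so most summits in it are upstream by construction. Of the 17 strongest pooled summits, 14 (82.4%) were upstream of the start, against 69.5% of those of all genes, and the median position was 403 bp upstream, against 300 bp. Over 300 bp upstream there were 9 (52.9%, against 49.9%), and within 300 bp upstream 5 (29.4%, against 19.5%). The F44E5 summit counts for 2 genes in these values. For 8 of the 17 genes the peak was also the strongest one of another protein-coding gene, against 1088 of the 6400 genes with a pooled peak, and 2 of the 8 are the F44E5 genes, counted for each other. The genes were Y22D7AL.10 with hsp-60, Y55F3AR.2 with cct-8, T10B5.4 with cct-7, pfd-4 and B0035.22 with dnj-2, supr-1 with dnj-28, spp-28 with dnj-16, and the F44E5.4 and F44E5.5 pair with each other.

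**Figure D4:**
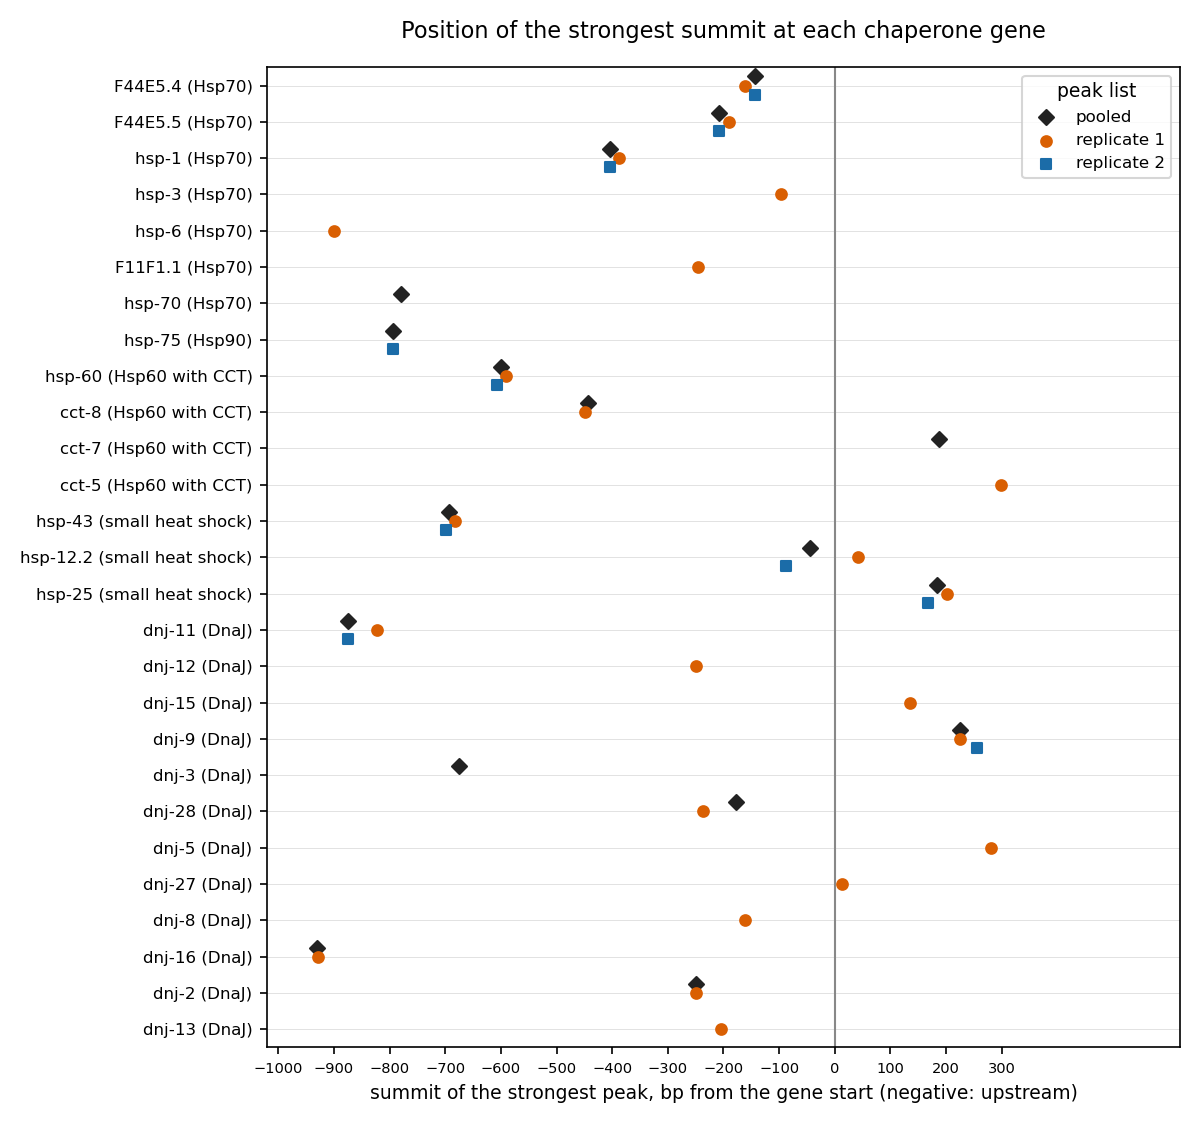
Distance in bp from the gene start to the summit of the strongest peak in the pooled list and in each replicate, for the 27 chaperone genes with a peak in some list (negative values are upstream). Replicate and pooled summits nearly coincide at F44E5.4, F44E5.5, hsp-1, hsp-60 and hsp-43, and lie on both sides of the start at hsp-12.2.

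E-boxes were frequent near chaperone summits and in the genome alike. Within 50 bp of the summit, 8 of the 16 different chaperone summits held CANNTG, against 37.3% of 5841 summits of all protein-coding genes. In whole windows an E-box was present in 62 of 63 genes (98.4%), against 99.0%. The pair GAANNTTC lay within 50 bp of 2 summits (12.5%, against 5.94%) and TTCNNGAA of 1 (6.25%, against 6.04%). A chain of 3 units lay within 50 bp of 1 summit, that of F44E5.4/F44E5.5 (6.25%, against 0.428%), and within 100 bp of 2, with hsp-60 (12.5%, against 1.04%).

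Chains of 3 units anywhere in the window were commoner at chaperone genes, at 17 of 63 (27.0%), than among all protein-coding genes (8.21%). By type they were in 6 of 9 Hsp70, 1 of 2 Hsp90, 1 of 9 Hsp60-type, 6 of 13 small heat shock and 3 of 29 DnaJ genes. Close to the start, from 250 bp upstream to 50 bp downstream, 13 genes (20.6%) had one, against 1.97%. In both counts the genes of a divergent pair share their chains, so that 1 stretch counts for 2 genes. This holds for F44E5.4 with F44E5.5, hsp-16.2 with hsp-16.41, and each of the 2 copies of hsp-16.1 with hsp-16.48. Chaperone genes with and without a chain had a pooled peak at like rates, 5 of 17 (29.4%) and 12 of 46 (26.1%), and so did all protein-coding genes, 29.3% and 32.3%. All 4 genes with a thresholded summit had a chain, against 11 of the 73 protein-coding genes with one (15.1%), of which these are 4.

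**Figure D5:**
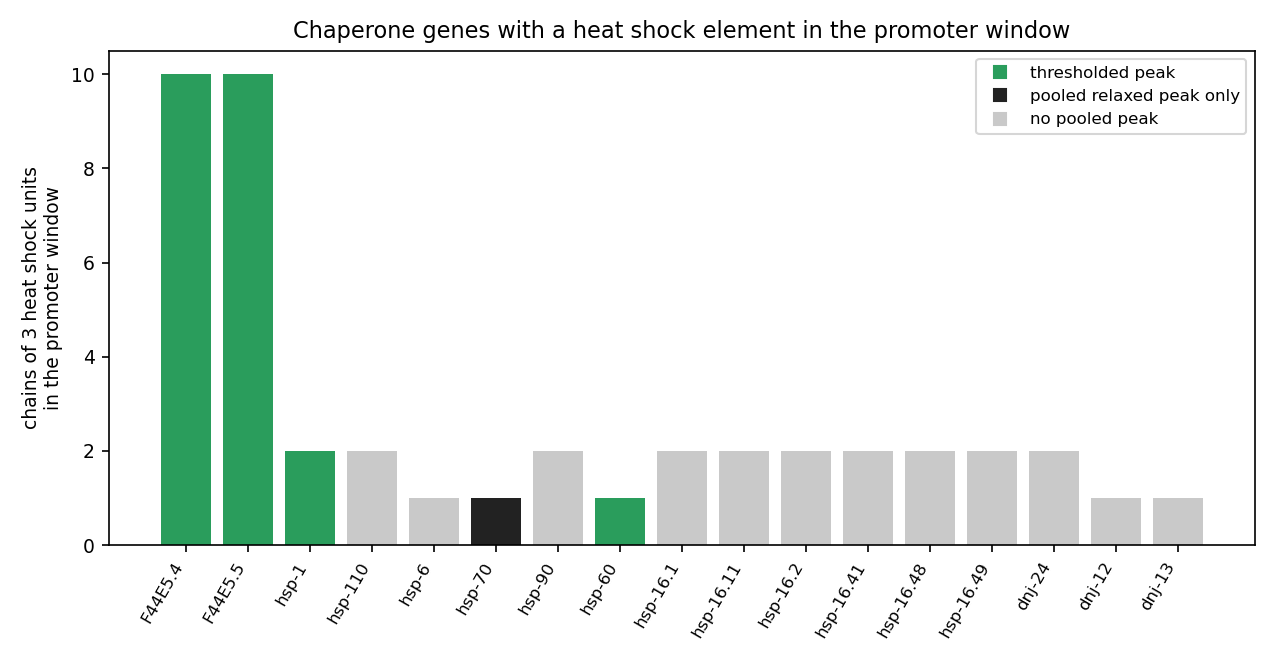
Number of chains of 3 heat shock units in the promoter window of the 17 chaperone genes with at least 1, by type; green bars have a thresholded peak, black a relaxed pooled peak only and grey no pooled peak. F44E5.4 and F44E5.5 hold 10 each, in the stretch they share. All 6 hsp-16 genes hold 2, shared within each divergent pair, and have no peak.

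The distance between chain and summit differed among the genes. It was 7 bp at F44E5.4/F44E5.5 and 91 bp at hsp-60, whereas at hsp-1 the chain nearest the start lay 138 bp upstream of it and 265 bp from the summit. At hsp-70 the chain lay 67 bp upstream of the start and 713 bp from the weak summit, and at hsp-90 the chains lay 79 and 9 bp upstream of the gene start, away from the summit in the intron. The genes with a chain and no pooled summit in the window were the 6 hsp-16 genes, hsp-6, hsp-90, hsp-110, dnj-12, dnj-13 and dnj-24.

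A list of 41 further genes of the same pathways was compared with the background. Of these 41 genes (partners of HSF-1, co-chaperones of Hsp70 and Hsp90, prefoldin, the stress responses of endoplasmic reticulum and mitochondria, and further chaperone genes outside the naming rule), 11 (26.8%) had a pooled summit in the window, against 32.0% of all protein-coding genes. In each replicate list 10 had one, against 32.4% in replicate 1 and 31.3% in replicate 2. No gene of the list had a thresholded summit, which at a background of 0.365% is no difference that 41 genes could show, and the Hsp10 gene Y22D7AL.10 was not on the list. The strongest pooled peak was found in both replicates for 2, pfd-3, a prefoldin subunit (rank 8499), and dve-1, a factor of the mitochondrial stress response (rank 7676). The highest pooled rank was that of xbp-1, a factor of the endoplasmic reticulum stress response, at 2847, 186 bp downstream of the start. It ranked 243 in replicate 2 and was not in replicate 1. The co-chaperone genes sti-1, unc-23 and bag-1 had no summit in any list, and enpl-1, the Hsp90 gene of the endoplasmic reticulum, had one in replicate 1 alone (rank 14584).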

How the data were processed

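Peak lists from ChIP-seq of tagged HLH-17 in 2 biological replicates were used as the authors deposited them, on ce11. Per the deposited notes, relaxed lists were called for each replicate and for both pooled against a control, and the irreproducible discovery rate gave the thresholded list. The sources used here do not name the peak caller or aligner. The deposited signal value has no stated scale. The deposited −log10 q column was read as log10 values, with q over 1 kept. Genes were taken from Ensembl, products and sequence from RefSeq (WBcel235).

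With Python 3.11.15, pandas 2.3.3 and numpy 2.4.6, each gene received the strongest peak with a summit from 1000 bp upstream to 300 bp downstream of its start. Replicate summits within 100 bp counted as found. Full values were given for genes with a thresholded summit, the 3 strongest of each type, hsf-1 and genes among the 500 strongest peaks of a list. Other genes with values, including those with peaks inside or past the gene, were chosen after the values were seen. Peak assignment was tested on simulated data. Members and lists were chosen with earlier results of these data known. No test was made, since there was 1 group and depth is unknown.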

Additional observations from a re-analysis of the deposited data

How the results depend on the processing

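Over 12 alternative settings, 127 of 176 values moved by less than 1.5 times or by less than the spread of the replicates, and 49 moved more; the cause was not tested unless the setting itself gives it, as a wider or narrower window does. With a window of 2000 bp upstream, pooled peaks were at 27 genes (13 DnaJ), and both replicate lists had a peak at 15 (6 DnaJ, 2 Hsp60-type). With 500 bp upstream to 100 bp downstream, pooled peaks were at 7 genes (2 DnaJ, 1 Hsp60-type, 1 small heat shock, 0 Hsp90), 4 of them found in both replicates, both replicate lists had 4 (1 small heat shock, 0 DnaJ, 0 Hsp60-type), and 0 Hsp60-type genes had a thresholded peak, since hsp-60 lies at 600 bp. With any transcript start, Hsp90 genes had 1 thresholded peak, 2 pooled peaks and 1 in both replicate lists, and Hsp60-type genes 2 in both. For these windows and starts the share over all protein-coding genes is not given. The counts therefore cannot show whether chaperone genes moved with the genome or apart from it. With only peaks of an estimated q of 1 or less, 2 genes had a thresholded peak, F44E5.4 and F44E5.5, which share 1 peak. Hsp60-type genes then had 0 thresholded, 1 pooled and 0 in both replicate lists. The limit on q removed most peaks of the thresholded list itself, and the share over all protein-coding genes is not given for it. The lower count of thresholded chaperone genes therefore cannot be told apart from the shortening of that list. With gene bodies added, a setting chosen after seeing the data, pooled peaks were at 38 genes (8 Hsp70, 2 Hsp90, 5 Hsp60-type, 5 small heat shock, 18 DnaJ), 18 found in both replicates, both replicate lists had 31 (7 Hsp70, 2 Hsp90, 3 Hsp60-type, 15 DnaJ), and Hsp90 and small heat shock genes had 1 thresholded peak each. With bodies added, 66.3% of all protein-coding genes had a pooled peak, against 60.3% of the chaperone genes. The share over all protein-coding genes is not given for the counts in both replicates. Those counts therefore cannot show whether chaperone genes moved with the genome. Leaving out F11F1.1, also chosen after seeing the data, moved no value by over 1.5 times. With the list of 1 replicate in place of the pooled list (without replicate 1 or without replicate 2), the count of genes with a peak was 10 or 23, that of DnaJ 2 or 11, that of Hsp60-type 1 or 3, that of Hsp90 1 or 0, that of genes with a peak among as many strongest peaks as the thresholded list holds 3 or 5 (without replicate 2 cct-8 is added; Hsp60-type genes 1 or 2), and the median rank 4174 or 16826. Of all protein-coding genes, 31.3% had a peak in the replicate 2 list and 32.4% in that of replicate 1. For the strongest peaks of each replicate the share over all genes is not given. Within 25 bp of summits, E-boxes were at 5 (31.2%, against 20.6% over all genes) and GAANNTTC at 1 (6.25%, against 3.10%), and within 100 bp GAANNTTC was at 6 (37.5%, against 12.0%) and TTCNNGAA at 4 of 16 (against 719 of 5841). No paired analysis was possible because the study has 1 group. Unknown depth and 2 replicates limit what the lists can show: a gene with no summit is not shown to lack binding.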
